A study of Homo sapiens with 2 samples.

Results

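The S100 genes encode small calcium-binding proteins, and 10 of them were followed here in SAS, an established oral cancer cell line. They are S100A2, S100A4, S100A6, S100A7, S100A8, S100A9, S100A10, S100A11, S100A14 and S100A16, taken by exact gene name from the transcript table, where all 10 were found among 24124 genes. Per the labels, 1 sample stably carried the plasmid pLKO.AS2 with ASC, and the other, the control, the same plasmid without it. ASC is the inflammasome adaptor encoded by PYCARD. Both samples were kept in medium with serum, G418 and puromycin. Whether each line was a clone or a pool, and which promoter drives ASC, is not stated in the labels. Each group had 1 poly(A) RNA library, and the table lists 31426491 reads for ASC and 31289581 for control. With a single library a group, the differences given here were not tested and their spread between cultures was not measured.

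S100 proteins carry a pair of EF hands, helix-loop-helix folds that hold calcium, and most act as dimers that open a binding surface for partner proteins when calcium rises. S100A8 and S100A9 pair as calprotectin, a metal-sequestering antimicrobial complex of neutrophils, monocytes and inflamed epithelium. Most S100 genes lie together on chromosome 1 within and beside the epidermal differentiation complex, a cluster of genes used by squamous epithelium as it matures. In the GENCODE annotation the main coding transcripts of the 10 genes encode between 90 residues (S100A6) and 114 residues (S100A9).

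Levels are given in RPKM (reads scaled to the length of the transcript and to sequencing depth), summed over the transcripts of a gene. The log2 ratio is that of ASC over control after adding 1 RPKM to each value, which understates differences of low genes. Genes that reached 1 RPKM in at least one of the libraries were compared, and 2-fold on this scale was counted as past the threshold. Intervals are exact (Clopper-Pearson) 95% intervals of the ratio of estimated reads scaled to library depth, and cover counting error only. In a bulk sample, a change in the number of cells that express a gene and a change in RNA per cell cannot be told apart.

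PYCARD stood at 266.5 RPKM in ASC and 1.36 RPKM in control, which matches the labels. All 8 epithelial markers were compared, 5 lay above 0 and 3 below, none was past 2-fold, and their median log2 ratio was 0.16. KRT8, KRT18, EPCAM and CDH1, which are not particular to squamous epithelium, lay above 0 (0.57, 0.49, 0.001 and 0.33), EPCAM barely so. Of the others, KRT14 lay above 0 (0.42), and KRT5, TP63 and DSG3 below (-0.44, -0.24 and -0.02). KRT8 stood at 1136 RPKM in ASC and 763 RPKM in control, and KRT5 at 311 RPKM in ASC and 421 RPKM in control. Of 10 myeloid markers, which matter because S100A8 and S100A9 are abundant in myeloid cells, 5 were in the table, none reached 1 RPKM, and their summed level was 0.791 RPKM in ASC and 0.647 RPKM in control. PTPRC, the pan-leukocyte marker, had 1 read in ASC and 0 in control. Of 7 fibroblast markers 6 were in the table, with a summed level of 0.696 RPKM in ASC and 0.346 RPKM in control.

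The stretches before the annotated starts of 5 of the genes are shown because they belong to the genes whose levels or transcript starts differed most between the libraries, and to the most abundant one. Each is the 250 bases before a RefSeq start (GRCh38.p14, the assembly that hg38 names), 5′ to 3′ on the strand of the gene. Capitals mark TATAAA, the TATA box that positions the start of transcription at some promoters, or TGANTCA, the core site of AP-1 factors.
S100A9, chr1:153357604-153357853, plus strand: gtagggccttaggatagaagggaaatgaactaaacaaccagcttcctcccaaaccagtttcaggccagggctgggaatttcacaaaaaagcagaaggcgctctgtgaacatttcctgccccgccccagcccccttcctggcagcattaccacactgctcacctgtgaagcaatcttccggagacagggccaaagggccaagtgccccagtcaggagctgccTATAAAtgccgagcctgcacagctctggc
S100A8, chr1:153391074-153391323, minus strand: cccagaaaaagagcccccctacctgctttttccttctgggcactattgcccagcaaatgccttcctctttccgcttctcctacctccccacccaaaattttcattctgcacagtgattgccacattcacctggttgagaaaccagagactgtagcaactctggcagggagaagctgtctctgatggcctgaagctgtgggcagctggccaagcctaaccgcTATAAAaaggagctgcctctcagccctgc
S100A7, chr1:153460652-153460901, minus strand: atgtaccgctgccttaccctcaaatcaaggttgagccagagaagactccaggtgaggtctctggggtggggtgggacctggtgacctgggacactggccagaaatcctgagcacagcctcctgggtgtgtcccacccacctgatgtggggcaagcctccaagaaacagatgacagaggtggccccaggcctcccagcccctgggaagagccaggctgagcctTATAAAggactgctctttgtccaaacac
S100A4, chr1:153545807-153546056, minus strand: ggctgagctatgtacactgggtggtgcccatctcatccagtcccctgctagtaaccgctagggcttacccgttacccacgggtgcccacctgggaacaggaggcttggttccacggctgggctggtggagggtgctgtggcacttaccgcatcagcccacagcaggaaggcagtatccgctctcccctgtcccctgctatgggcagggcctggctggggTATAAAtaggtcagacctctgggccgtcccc
S100A2, chr1:153565845-153566094, minus strand: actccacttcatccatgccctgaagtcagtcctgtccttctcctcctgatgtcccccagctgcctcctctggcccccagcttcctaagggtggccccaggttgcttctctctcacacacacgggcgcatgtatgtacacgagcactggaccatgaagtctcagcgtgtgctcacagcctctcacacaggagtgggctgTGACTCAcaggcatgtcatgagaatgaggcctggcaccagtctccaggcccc

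In the windows shown for S100A9, S100A8, S100A7 and S100A4 a TATA box began 29, 29, 28 and 31 bases before the start. All 10 genes had at least 1 window in RefSeq, 14 windows in all, and 5 of these 14 windows held TATAAA on either strand, against 10.7% of all 35114 windows of this length. A pair of the 5 belong to S100A8, overlap and hold the same box. TGANTCA was in 1 window, the S100A2 window shown, beginning 52 bases before the start, against 6.57% of all windows. A further S100A2 window, not shown, held none of these sites. TTGCNNAA, a C/EBP site, was found before S100A11 alone (9.05% of all windows) and the NF-kB site before S100A14 alone (9.96% of all windows). These are letter matches in short windows and do not show binding.

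The family as a whole was abundant and its sum barely differed. The 10 genes together came to 1817 RPKM in ASC and 1819 RPKM in control, a ratio of 0.999. Of the 9 genes compared, 1 was 2-fold higher (0.617% of all 12471 genes compared were), none was 2-fold lower (0.265% of all genes), and 6 lay above 0 and 3 below. Their median log2 ratio was 0.12, beside 0.01 over all genes compared, of which 52.0% lay above 0. With S100A9 set aside, the other genes summed to 1586 RPKM in ASC and 1712 RPKM in control, a ratio of 0.927. The near-equal sums therefore hold a higher S100A9 and slightly higher S100A6, S100A10, S100A11 and S100A16 beside lower S100A2 and S100A14.

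**Figure D1:**
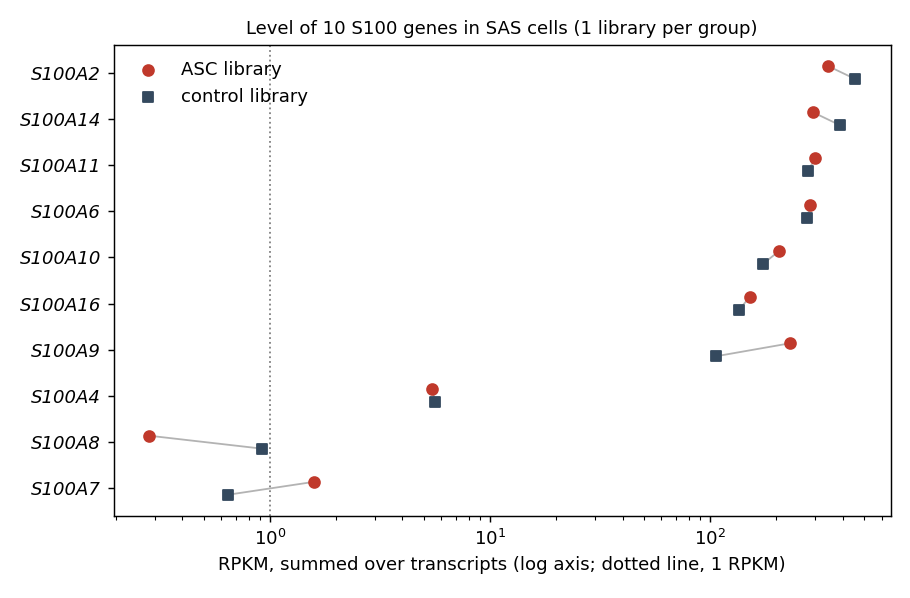
RPKM of the 10 genes on a log axis, with 1 point for the ASC library (circles) and 1 for the control library (squares), in the order of the control levels. Among the genes above 100 RPKM, S100A9 has the widest gap, 230.5 RPKM in ASC and 106.6 RPKM in control, while S100A7 and S100A8 lie near or under 1 RPKM.

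The genes fell into an abundant and a scarce set. In the ASC library the order of levels was S100A2, S100A11, S100A14, S100A6, S100A9, S100A10 and S100A16, from 343 to 151 RPKM, each above at least 96.9% of the genes compared. S100A4, S100A7 and S100A8 followed far below, at 5.47, 1.58 and 0.282 RPKM. In the control library S100A2 and S100A14 led at 456 and 388 RPKM, S100A11 and S100A6 stood close together at 277 and 275 RPKM, and S100A10, S100A16 and S100A9 followed. S100A9 was thus number 5 of the 10 in ASC and number 7 in control. Without repeated libraries the spread of a level is unknown, so neighbours such as S100A14 and S100A6 in ASC cannot be ordered beyond doubt.

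The calprotectin genes and S100A7, the secreted antimicrobial members, had the ratios of reads furthest from 1, S100A8 in the opposite direction to the others. Those of S100A8 and S100A7 rest on few reads. S100A9 had 4743 reads and 230.5 RPKM in ASC, against 2200 reads and 106.6 RPKM in control. The ratio of reads was 2.15 (interval 2.04 to 2.26) and the log2 ratio 1.11. Only 60 of the 12471 genes compared had a log2 ratio as high, the introduced PYCARD included. Of 739 genes that reached 100 RPKM in one of the libraries or both, 6 were 2-fold higher, S100A9 and PYCARD among them. Of the same 739 genes, 0 were 2-fold lower. S100A9 (ENSG00000163220.10) is on the plus strand at chr1:153357854-153361027 in hg38, has 1 listed transcript, ENST00000368738.3, and whole read numbers in both libraries, so no estimated split between transcripts enters its value.

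S100A8, the partner of S100A9 in calprotectin, was nearly silent and lay the other way. It had 5 reads (0.282 RPKM) in ASC and 17 reads (0.917 RPKM) in control, under 1 RPKM in both, so it was not compared. The ratio of reads was 0.293 (interval 0.0845 to 0.827), and with so few reads the size of the difference is poorly known. On a per-length scale, S100A9 RNA exceeded S100A8 RNA 817-fold in ASC and 116-fold in control. S100A8 lies 29 kb from S100A9, on the opposite strand.

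S100A7, known as psoriasin from its abundance in psoriatic skin, was also scarce, at 1.58 RPKM in ASC and 0.642 RPKM in control. The 27 reads in ASC and 11 in control gave a ratio of 2.44 with a wide interval of 1.17 to 5.46. Its log2 ratio was 0.65, under the threshold on the log2(RPKM + 1) scale. With a pseudocount of 0.1 RPKM it was 1.18, past 2-fold. S100A7 has a near-identical copy, S100A7A, but the reads of both genes were whole numbers within 0.05 in both libraries, so no estimated split between them shows. S100A7A itself had 0 reads in ASC and 3 in control, and 3 reads are the limit that a count of 0 allows.

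**Figure D2:**
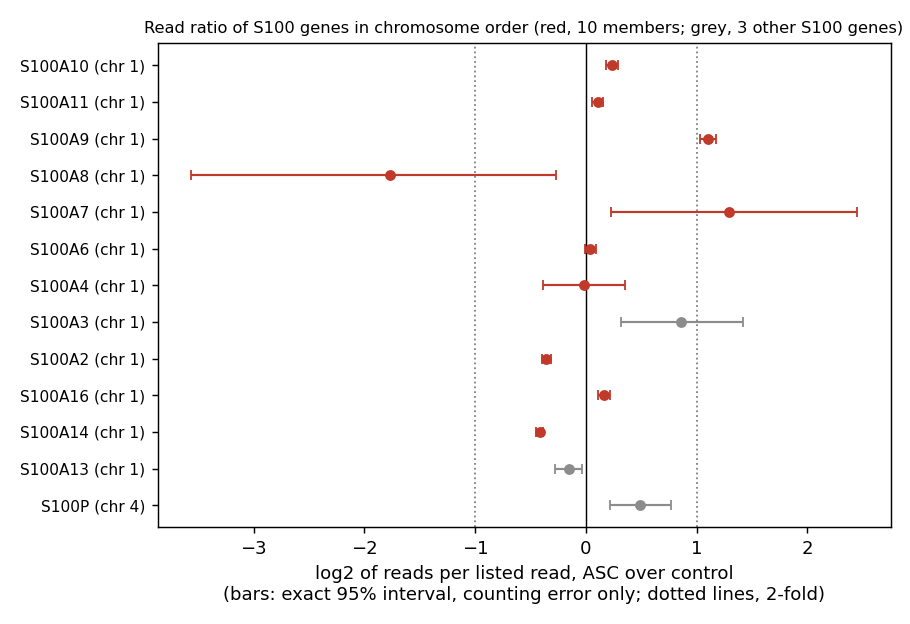
Log2 of the depth-scaled read ratio, ASC over control, for the 10 genes (red) and the 3 other S100 genes that reached 1 RPKM (grey), in chromosome order from the top. Bars are exact 95% intervals of counting error, and of the 13 intervals shown only that of S100A9 lies wholly beyond the 2-fold line, from 1.03 to 1.18.

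S100A2 and S100A14, which are typical of stratified epithelium, were both lower in the ASC library, by less than 1.5-fold. S100A2, a nuclear and cytoplasmic protein of basal keratinocytes, had 343 RPKM in ASC and 456 RPKM in control, from 8407 and 10720 reads. Its log2 ratio was -0.41, and the ratio of reads 0.781 (interval 0.759 to 0.804). S100A14 had 293 RPKM in ASC and 388 RPKM in control, a log2 ratio of -0.41 and a ratio of reads of 0.748 (interval 0.730 to 0.767). Counting error is small for both, and the spread between repeated cultures was not measured. Of the 9 S100 genes compared, 2 were at least 1.5-fold higher, S100A9 and S100A7 (2.38% of all genes were), 0 were 1.5-fold lower (1.81% of all genes), and 7 lay within 1.5-fold, S100A2 and S100A14 included, beside 95.8% of all genes compared.

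S100A16, the neighbour of S100A14 and reported to bind it, did not share its direction. It stood at 151 RPKM in ASC and 135 RPKM in control, a log2 ratio of 0.17. The level of S100A14 over that of S100A16 was 1.94 in ASC and 2.89 in control. The genes lie on the same strand 1.11 kb apart, and the library kit does not mark strand.

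The annexin-binding members differed little. S100A10, which forms a tetramer with annexin A2 at the plasma membrane, had 206 RPKM in ASC and 174 RPKM in control, with a ratio of reads of 1.18 (interval 1.13 to 1.22). S100A11, a partner of annexin A1, had 300.0 RPKM in ASC and 277 RPKM in control, with a ratio of reads of 1.08 (interval 1.04 to 1.11). S100A6, or calcyclin, had 285 RPKM in ASC and 275 RPKM in control, and its interval of the ratio of reads, 0.993 to 1.06, includes 1. These 3 genes had log2 ratios of 0.24, 0.12 and 0.05. S100A4, a myosin-binding protein linked to motility and metastasis, was low and equal in total, at 5.47 RPKM and 126 reads in ASC and 5.63 RPKM and 127 reads in control (interval of the ratio 0.766 to 1.27).

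Values per transcript showed where these totals came from. The table lists 40 transcripts of the 10 genes, of which 28 reached 1 RPKM in either library. Of these 28, 2 were at least 2-fold higher in ASC (1.26% of 34527 transcripts compared were) and 1 was 2-fold lower (1.06%). The 2 higher ones were the single S100A9 transcript and ENST00000462776.2, a minor form of S100A6 at 1.94 RPKM in ASC and 0.435 RPKM in control. The lower one was ENST00000368716.8 of S100A4. Fractional reads show that reads matching several transcripts were divided by estimation, so transcript values carry an error that the counting intervals leave out.

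**Figure D3:**
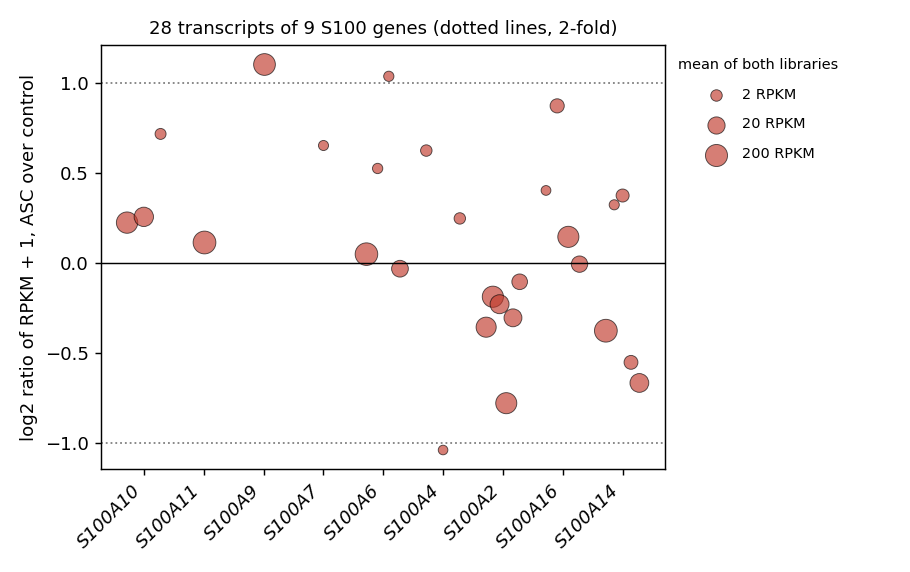
Log2 ratio of RPKM + 1, ASC over control, of the 28 transcripts that reached 1 RPKM, by gene in chromosome order, with the point size growing with the mean level. All 6 S100A2 transcripts lie under 0, from -0.78 to -0.11, while those of S100A14 and S100A4 lie on both sides.

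All 6 listed S100A2 transcripts were lower in ASC, by unequal amounts. The most abundant by reads, ENST00000368708.7, had 117 RPKM in ASC and 134 RPKM in control, a log2 ratio of -0.19. ENST00000368710.5, which begins at the most upstream exon, had 87.3 RPKM in ASC and 151 RPKM in control, a log2 ratio of -0.78. Its share of the S100A2 reads was 16.8% in ASC and 22.8% in control. ENST00000368707.4, with 15.3% and 15.5% of the reads, had a log2 ratio of -0.36. Of the 6 coding transcripts, 4 share 1 coding sequence of 97 codons, among them the first and second named here, so these differ in their noncoding ends and not in the protein.

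S100A14 followed the same direction in its main forms. ENST00000344616.3, with 86.5% of the reads in ASC and 84.8% in control, stood at 252 RPKM in ASC and 328 RPKM in control. ENST00000476873.5 stood at 30.8 RPKM in ASC and 49.6 RPKM in control, and the minor form ENST00000368701.5 lay the other way, at 4.32 RPKM in ASC and 3.11 RPKM in control. In S100A10 both main forms were higher in ASC by about the same amount, with log2 ratios of 0.22 and 0.26. S100A6 and S100A11 each drew over 93% of their reads from 1 form, with log2 ratios of 0.05 and 0.12.

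Transcripts whose annotated starts lay within 150 bases of the next were also joined into start groups, a grouping made after the values had been seen. Intervals of the shares of these groups treat estimated reads as counted ones and all reads of a gene as informative, so they are too narrow. S100A4 kept its total while its start groups differed. The group that spans the RefSeq start shown above (153545806) has annotated starts from 153545885 to 153545802. It had 12.2 reads in ASC and 52.7 in control. Its share of the S100A4 reads was 9.65% in ASC (interval 5.02% to 16%) and 41.5% in control (interval 33.0% to 50.8%). The group about 0.71 kb downstream had 113.8 reads in ASC and 74.3 in control, which is 4.86 RPKM and 3.08 RPKM. Within it ENST00000368715.5 stood at 2.64 RPKM in ASC and 1.36 RPKM in control, and the noncoding ENST00000481009.1 at 2.22 RPKM in ASC and 1.72 RPKM in control. In the upstream group ENST00000368716.8 stood at 0.229 RPKM in ASC and 1.53 RPKM in control. It begins at 153545885, upstream of the RefSeq start and of the TATA box marked before it. The noncoding ENST00000468373.1, which begins at the RefSeq start, stood at 0.379 RPKM in ASC and 0.830 RPKM in control. All 4 coding transcripts of S100A4 share 1 coding sequence of 101 codons. The coding forms named here, ENST00000368715.5 and ENST00000368716.8, differ in a noncoding first exon. The split was estimated from about 126 reads a library, and only those reaching parts in which the forms differ inform it.

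S100A16 had a smaller difference of the same kind. Its main start group held 94.2% of the reads in ASC and 96.6% in control. The group about 3.74 kb downstream had 293 reads in ASC and 149 in control, or 8.47 RPKM in ASC and 4.27 RPKM in control, and its share was 5.10% in ASC (interval 4.54% to 5.70%) and 2.92% in control (interval 2.47% to 3.41%). Most of it was ENST00000368705.2, at 7.79 RPKM in ASC and 3.80 RPKM in control. The main form ENST00000368706.8 stood at 128 RPKM in ASC and 115 RPKM in control.

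S100A8 also had its few reads placed differently, with 4.68 of 5 reads on ENST00000368732.5 in ASC and 14.2 of 17 reads on ENST00000368733.3 in control, too few for a statement on its starts.

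**Figure D4:**
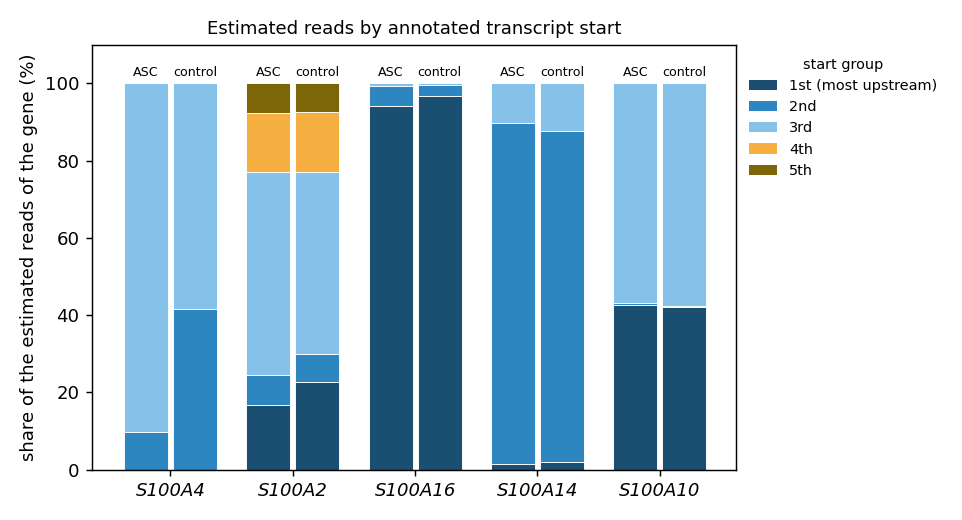
Share of the estimated reads of each gene by annotated start group, numbered from the most upstream, with the ASC library left of the control library for 5 genes that have several starts. The upstream group of S100A4, the second one, takes 9.65% in ASC and 41.5% in control, while S100A10 and S100A14 differ by a few percentage points at most.

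Other S100 genes and the partners of the family were set beside these values, from lists written with earlier results of these data known. Of 10 other S100 genes, 7 were in the table and 3 were compared, none past 2-fold. S100P, a secreted ligand of the receptor RAGE, stood at 8.62 RPKM in ASC and 6.28 RPKM in control. S100A3, a hair cuticle protein and the neighbour of S100A4, stood at 2.78 RPKM and 82 reads in ASC and at 1.55 RPKM and 45 reads in control. S100A13 stood at 40.5 RPKM in ASC and 43.4 RPKM in control, and 1 of its transcripts overlaps S100A1 on the other strand. S100A1, S100A5 and S100Z had at most 5 reads in either library.

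Of 20 partner and receptor genes, 18 were compared, 1 was 2-fold higher (0.617% of all genes were), 0 were 2-fold lower (0.265% of all genes), 5 lay above 0 and 13 below (52.0% of all genes lay above 0), and their median log2 ratio was -0.08. The higher one was TRPV6, a calcium channel whose surface delivery involves the S100A10 and annexin A2 complex, at 7.90 RPKM (1058 reads) in ASC and 2.99 RPKM (386 reads) in control. ANXA2 stood at 791 RPKM in ASC and 687 RPKM in control, so that S100A10 RNA was 0.260 times ANXA2 RNA in ASC and 0.253 times in control. ANXA1 stood at 373 RPKM in ASC and 433 RPKM in control, and ANXA11 at 43.5 RPKM in ASC and 51.3 RPKM in control.

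Further intracellular partners were close. AHNAK stood at 43.8 RPKM in ASC and 47.3 RPKM in control, CACYBP (the calcyclin-binding protein) at 60.9 RPKM in ASC and 68.9 RPKM in control, and MYH9, the myosin heavy chain bound by S100A4, at 158 RPKM in ASC and 162 RPKM in control. ALCAM, a cell adhesion protein reported as a receptor for S100A8 and S100A9, had a log2 ratio of -0.41, and RANBP9 and NPTN had 0.26 and -0.21. Levels of the receptors named for extracellular S100 proteins ranged widely. BSG, which encodes basigin and is reported to bind S100A9, stood at 403 RPKM in ASC and 455 RPKM in control, ALCAM at 96.0 RPKM in ASC and 128 RPKM in control, and NPTN at 34.2 RPKM in ASC and 39.7 RPKM in control. AGER, which encodes RAGE, stood at 1.76 RPKM in ASC and 1.99 RPKM in control, and TLR4 at 0.662 RPKM in ASC and 0.358 RPKM in control, while CD36 had 5 reads in ASC and 4 in control. BSG and CD36 were named after their values were seen.

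The stretch of chromosome that holds the family could not be checked for a common shift, since no other gene inside it was compared. Between S100A10 and S100A13, chr1:151982915-153631360 (1648 kb), 14 S100A genes were listed and 11 reached 1 RPKM, while all 18 other listed genes lying wholly inside stayed under 1 RPKM in both libraries, at most 0.761 RPKM. The differentiation genes in this stretch were nearly silent. Of 30 such genes in the list, 11 were in the table, IVL (involucrin) had 9 reads in ASC and 16 in control, and SPRR1B had 0 reads in ASC and 4 in control. Of these genes 2 had more reads in ASC with an interval of the ratio above 1, and both are named after their values were seen. The filaggrin gene FLG had 76 reads in ASC and 5 in control, or 0.167 RPKM in ASC and 0.0110 RPKM in control. CRCT1 had 19 reads in ASC and 5 in control, or 0.761 RPKM in ASC and 0.200 RPKM in control. The median log2 ratio of the 50 nearest compared genes outside the family was 0.02 for S100A9, -0.02 for S100A2 and -0.03 for S100A14. None of those genes lay wholly inside the stretch.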

How the data were processed

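Poly(A) RNA of 2 SAS samples was extracted with TRIzol and made into libraries with a TruSeq v2 kit, per the labels' protocols. The deposited table holds estimated counts of reads per transcript and RPKM values for both libraries, per the file headers. The submitters' processing notes name the build hg38. The aligner and quantifier were not given in the sources used here. All 40 S100 transcripts carried the same version in GENCODE release 29, which gave their types and coding parts, and deposited stops lie 1 base past the annotated end. Names that a spreadsheet had turned into dates were restored (284 of 285).

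RPKM was summed per gene, and genes reaching 1 RPKM in one of the libraries or both were compared as log2 ratios with a pseudocount of 1. With 1 library per group no test was made. The counting of genes past 2-fold was checked on simulated libraries with known folds. These held counting error alone, so the check leaves out the spread between cultures and the estimated split of reads. Estimated counts were rounded to whole reads for the intervals. The sums of reads per gene were whole within 0.05 in both libraries for 5 of the 10 genes, S100A4, S100A7, S100A8, S100A9 and S100A11, so reads of the others may be shared with other loci.

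Alternatives were other pseudocounts and filters, centring, CPM, TMM scaling of the rounded counts with edgeR 4.0.16, the highest transcript, subtraction of 50 neighbouring genes and a 1.5-fold threshold. Named are all 10 genes, their transcripts with at least 10% of the reads of the gene, the other S100 genes, up to 5 genes per list and fixed partners. Cell type markers, IVL, SPRR1B, CALM2, LCN2, IL1A, IL1B, KRT6A, IL36RN, KRT6B, SERPINB4, LTF and IL36G are named outside that rule, with values of these data known. Minor transcripts that are past 2-fold or show a start or an opposite direction were added after their values were seen. Promoter windows are RefSeq's. The genes and lists were chosen with earlier results of these data known. Python 3.11.15, pandas 2.3.3, numpy 2.4.6, scipy 1.17.1 and matplotlib 3.10.9 were used.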

Additional observations from a re-analysis of the deposited data

How the results depend on the processing

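S100A9 was past 2-fold in every alternative run, with log2 ratios between 1.09 and 1.11. Log2 ratios of S100A6, S100A10, S100A11, S100A14 and S100A16 moved by less than their counting intervals. S100A2 had -0.36 with CPM and -0.35 with TMM scaling, and -0.19 when its highest transcript stood for the gene. S100A4 turned from -0.03 to 0.62 with the highest transcript, which is by construction a value of 1 form. S100A7 ranged from 0.33 to 1.18, so the number of S100 genes 2-fold higher was 2 in place of 1 with a pseudocount of 0.1, and 2 at 1.5-fold as well. Over all genes, 77 were higher and 33 lower. The counts were 160 and 127 with a pseudocount of 0.1, 34 and 9 with a pseudocount of 3, 121 and 65 with CPM, 121 and 64 with TMM scaling, and 297 and 226 at 1.5-fold. A filter of 5 RPKM left 17 lower. No scaling moved the median of all genes compared by over 0.1. Shares of reads by transcript moved with RPKM in place of reads for 6 of 18 named transcripts, since RPKM gives short forms more weight, as in ENST00000368710.5 of S100A2, 25.4% in place of 16.8% in ASC. No paired analysis was possible because each group has 1 library, and for the same reason no replicate could be left out. Depth limits S100A8, S100A7 and the starts of S100A4, and an abundant gene is limited by the missing replicates.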

Other observations

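Genes that inflamed squamous epithelium switches on together with calprotectin and psoriasin lay mostly above 0 in ASC over control, in a list written with earlier results of these data known. Of its 20 genes, 15 were compared, 5 were 2-fold higher (0.617% of all genes compared were) and 0 were 2-fold lower (0.265% of all genes). Of the 15, 13 lay above 0 (52.0% of all genes compared did), and their median log2 ratio was 0.52. SAA1 and SAA2, acute-phase proteins with near-identical sequences that may share reads, had log2 ratios of 2.94 and 2.12. SLPI, the secretory leukocyte protease inhibitor, stood at 50.4 RPKM in ASC and 13.8 RPKM in control. The elafin gene PI3 had 41 reads in ASC and 7 in control, and the chemokine gene CXCL1 132 reads in ASC and 39 in control. LCN2, whose product binds bacterial siderophores, had 57 reads in ASC and 20 in control. IL1A and IL1B, abundant in both libraries, had log2 ratios of 0.01 and -0.07. KRT6A lay the other way, with 288 reads in ASC and 364 in control and a log2 ratio of -0.46. Among the genes under 1 RPKM, IL36RN had 37 reads in ASC and 73 in control. KRT6B also had fewer reads in ASC, while SERPINB4, LTF and IL36G had more.

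Calcium-binding genes with EF hands outside the S100 family stayed within 2-fold. Of 22 listed, 21 were in the table and 20 were compared, none past 2-fold, with a median log2 ratio of 0.05 and a range from -0.35 (CALML3) to 0.36 (CAPNS1, the small calpain subunit). RCN1, SRI and CHP1 had log2 ratios of 0.28, -0.28 and 0.27. The calmodulin gene CALM2 stood at 536 RPKM in ASC and 546 RPKM in control.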
